A study of Mus musculus with 48 samples.

Results

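An endocrine signal and the proteins that receive it at the cell surface are encoded by 6 genes, the hormone gene Fgf21, the coreceptor gene Klb (beta-klotho) and the receptor tyrosine kinase genes Fgfr1, Fgfr2, Fgfr3 and Fgfr4. They were found by gene symbol on the array, which carries 10 probes for these 6 genes among 25697 probes and 16593 named genes. RNA of liver, epididymal white adipose tissue (eWAT) and gastrocnemius muscle from male mice of 3 months on the C57Bl/6J background was hybridized to 48 Illumina bead arrays on 6 chips. In each tissue, wild-type mice fed ad libitum (3 arrays), wild-type mice after a 24 hr fast (3 arrays) and wild-type mice on caloric restriction for 2 weeks (4 arrays) made up the diet experiment, and ApoE-FGF21-Tg mice (3 arrays) and their own wild-type controls (3 arrays), both fed ad libitum, made up the ligand-excess experiment. The labels describe the restriction as 40%, whereas the study's methods describe a daily meal equal to 40% of earlier intake. The study's legend for the array figure matches its methods and not the labels. The restricted mice ate once a day in the late afternoon and were killed shortly before the next meal, so that restriction and time since the last meal cannot be told apart. In FGF21-Tg mice the apoE promoter drives the FGF21 transgene and is described as hepatocyte-selective, all mice of both experiments keep their own Fgf21 gene, and an array holds cRNA of 1 to 3 mice.

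The labels of 2 chips could not be used as given. On chips 2 and 3 in sample order, the strongest of Adipoq (adipocyte adiponectin), Ckm (muscle creatine kinase) and Apoa1 (hepatocyte apolipoprotein) fitted the labelled tissue on 4 of 16 arrays. After the labels of these chips were exchanged position by position it fitted on 16 of 16, and on the other chips it fitted on 32 of 32 without any exchange. The exchange is used throughout, and values without both chips stand beside those that could be computed without them. The markers settle the tissue but not the diet group, so the diet assignment on these chips rests on position alone. The exchange bears on all ad libitum, fasted and calorically restricted eWAT arrays, all ad libitum muscle arrays, 1 of 3 fasted muscle arrays and 2 of 4 calorically restricted liver arrays. No label of the ligand-excess experiment is affected, but its fits share their estimate of the spread with the diet arrays of the same tissue. Median signals of the arrays ranged from 182.2 to 264.8, and 41.98% to 56.34% of probes were detected on an array, meaning that the scanner software's detection p was under 0.05. After the exchange, adiponectin read 47591 to 68536 in eWAT against 168 to 277 in liver, creatine kinase read 37479 to 69111 in muscle, and Apoa1 read 61187 to 68677 in liver.

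FGF21 is a hormone made mainly by the liver, where the fatty acid-activated nuclear receptor PPARα switches its gene on during fasting. Unlike most fibroblast growth factors it binds heparan sulfate poorly and can therefore circulate, and it activates FGF receptors only in cells that also carry β-klotho, a single-pass membrane protein. FGFR1 is the main partner of β-klotho in adipocytes, FGFR4 is the main FGF receptor of hepatocytes, where it also receives the bile acid-induced hormone FGF15, and receptor activation signals through FRS2 and the ERK kinases to feedback inhibitors of the Sprouty and DUSP families.

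The sequences just upstream of the start sites of the hormone and coreceptor genes are shown because the signals of both changed with diet. They were taken from RefSeq, build GRCm38.p6, and are the 250 bases before the annotated start, 5′ to 3′ on the gene's strand, at chr7:45615491-45615740 for Fgf21 (minus strand) and chr5:65348161-65348410 for Klb (plus strand). Capitals mark the motifs found among 5 that were searched on both strands. The C/EBP-ATF element was searched as TTGCATCA. The E-box, bound by helix-loop-helix factors, was searched as CACGTG. For the core promoter the letters were TATAAA, and for the half-site of many nuclear receptors they were AGGTCA. DR1, the site that PPARα binds together with RXR, was searched as a pair of such half-sites in the same direction with 1 base between them.
Fgf21: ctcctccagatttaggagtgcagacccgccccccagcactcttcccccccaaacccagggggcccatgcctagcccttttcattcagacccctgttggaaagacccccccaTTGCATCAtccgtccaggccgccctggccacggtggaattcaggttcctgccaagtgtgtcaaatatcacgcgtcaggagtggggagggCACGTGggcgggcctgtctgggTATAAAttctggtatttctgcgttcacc
Klb: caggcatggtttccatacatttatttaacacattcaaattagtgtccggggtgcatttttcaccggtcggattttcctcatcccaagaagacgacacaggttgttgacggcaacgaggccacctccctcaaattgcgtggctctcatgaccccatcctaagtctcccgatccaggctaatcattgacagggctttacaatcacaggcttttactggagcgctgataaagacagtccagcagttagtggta
The Fgf21 window held TTGCATCA 139 bases, CACGTG 50 bases and TATAAA 28 bases before the start. TTGCATCA occurred in 0.791% of the 32851 windows of the same length in the RefSeq table, CACGTG in 6.02% and TATAAA in 12.4%. AGGTCA, present in 14% of windows, and DR1, present in 0.0335%, were in neither window, and the Klb window held none of the 5 motifs. None of the motifs was in the windows listed for Fgfr2, Fgfr3 or Fgfr4. In build GRCm38.p6 the whole genes lie at chr7:45613890-45615490 (Fgf21), chr5:65348411-65386957 (Klb), chr8:25518759-25575718 (Fgfr1), chr7:130162451-130266808 (Fgfr2), chr5:33721724-33737068 (Fgfr3) and chr13:55152818-55168759 (Fgfr4).

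**Figure D1:**
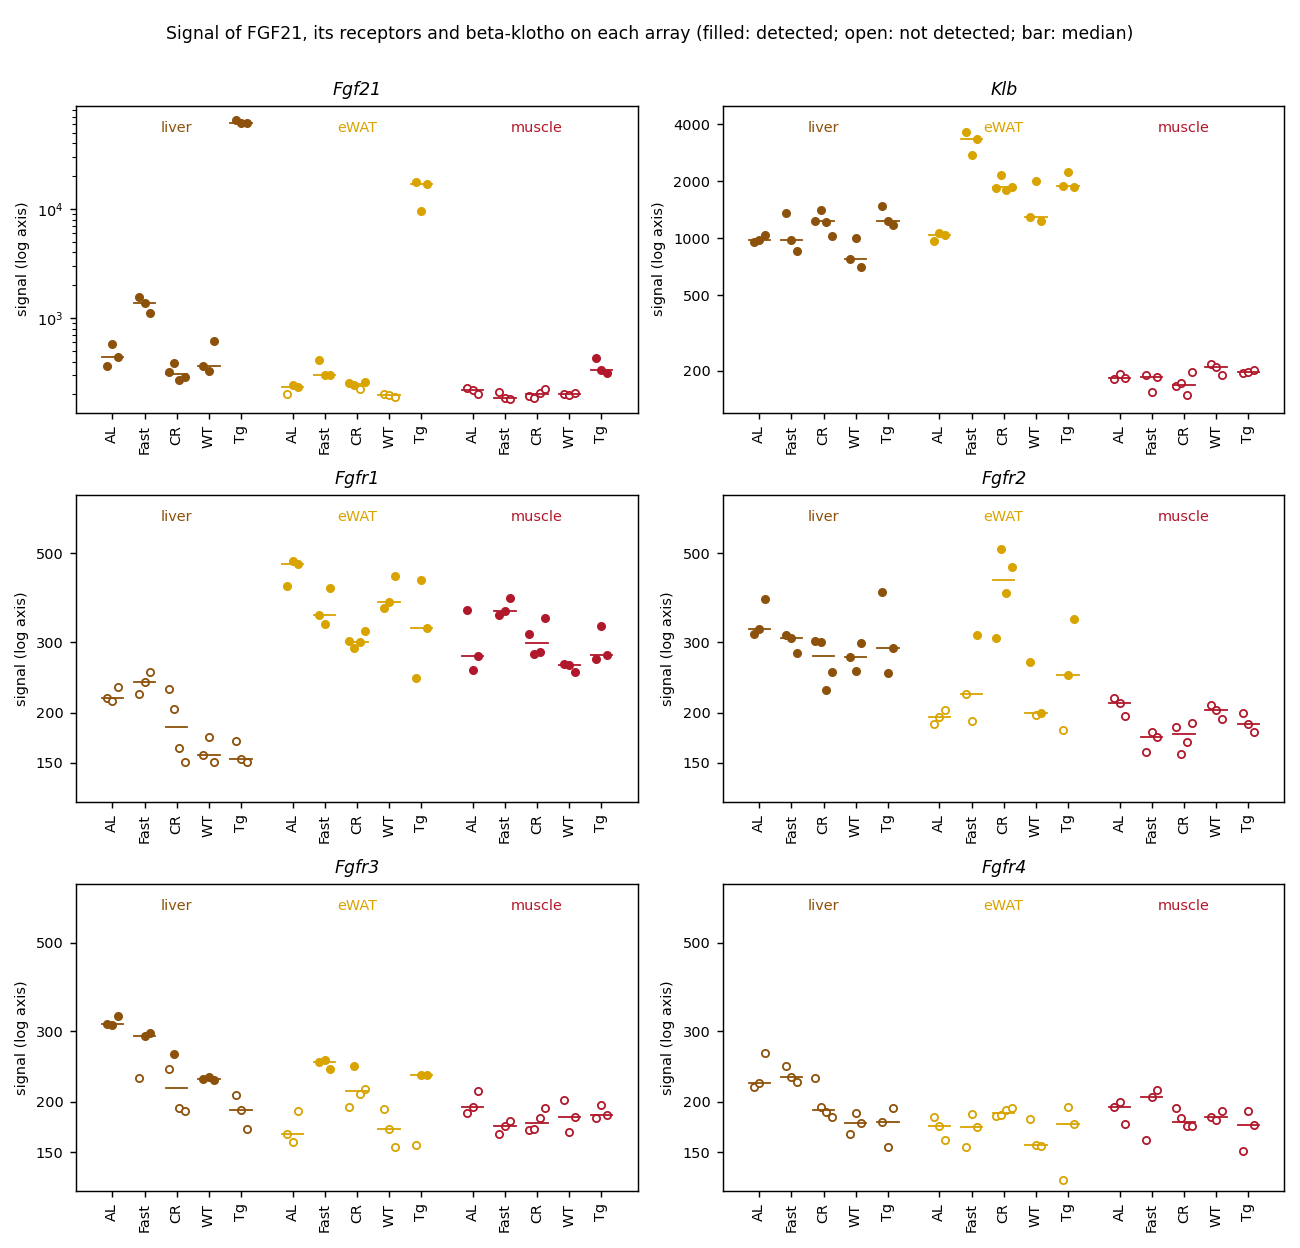
Array signal (log axis) of the brightest probe of each gene in liver, eWAT and muscle, for ad libitum (AL), fasted (Fast), calorically restricted (CR), wild-type control (WT) and FGF21-Tg (Tg) mice; each point is 1 array, filled where the probe was detected, and bars are medians. Klb was detected on 16 of 16 liver and 16 of 16 eWAT arrays and on 0 of 16 muscle arrays, and Fgfr1 on 16 of 16 eWAT and 16 of 16 muscle arrays and on 0 of 16 liver arrays.

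The first question was which tissue holds receptor and coreceptor. Coreceptor and its main partner were detected together on every eWAT array and on no array of liver or muscle. The brightest Fgfr1 probe was detected on 16 of 16 eWAT and 16 of 16 muscle arrays but on 0 of 16 liver arrays, and Klb on every liver and eWAT array but on 0 of 16 muscle arrays. The brightest Fgfr2 probe was detected on 16 liver, 9 eWAT and 0 muscle arrays, and the brighter Fgfr3 probe on 9 liver, 6 eWAT and 0 muscle arrays. A dimmer Fgfr2 probe was detected on 6 liver, 8 eWAT and 0 muscle arrays. Fgf21 itself was detected on 16 liver, 11 eWAT and 3 muscle arrays. In bulk tissue, more cells of a type and more RNA per cell cannot be told apart, and a probe is compared here only with itself across arrays.

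Klb, the coreceptor, was detected in liver and eWAT and at background in muscle. In wild-type controls its signals were 780.5, 1000.4 and 706 in liver, 1287, 1997 and 1225 in eWAT, and 216, 208 and 189 in muscle, where no array detected it. The liver and eWAT signals therefore all lay above every muscle signal. On the log2 scale after quantile normalization over all arrays, the means were 9.81 ± 0.31 (SD, n = 3) in liver, 10.05 ± 0.54 in eWAT and 5.66 ± 0.31 in muscle. Muscle gives only a bound, since the probe was not detected there; against the higher of an array's lowest detected signal and the probe's own, Klb was at least 14.8-fold higher in liver and at least 17.5-fold higher in eWAT (limma, adjusted p = 4.4e-21 and 2.0e-21). Liver and eWAT differed by -0.24 ± 0.20 (SE) with overlapping arrays (adjusted p = 0.31). Among ad libitum mice, in contrast, Klb was 0.56 ± 0.20 higher in liver than in eWAT (adjusted p = 0.016; 0.48, adjusted p = 0.24, with the chip as a block, and 0.17, adjusted p = 0.53, with median scaling), so that the order of these neighbours was not the same in both fed groups. The eWAT arrays of the ad libitum group rest on the exchange.

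Fgfr1, the receptor that pairs with β-klotho in fat, was detected in eWAT and muscle and at background in liver. Its brightest probe read 157, 174 and 151 on wild-type control liver arrays, none detected, 364, 379 and 438 in eWAT and 265, 263 and 253 in muscle. The raw eWAT signals were all above the muscle signals, and those all above liver, whereas after normalization eWAT and muscle overlapped. Fgfr1 was at least 2.25-fold higher in eWAT and at least 1.63-fold higher in muscle than in liver (adjusted p = 8.3e-12 and 2.0e-09). The eWAT level exceeded the muscle level by 0.47 ± 0.22 (adjusted p = 0.063), a difference that no longer passed the threshold of 0.10 without eWAT replicate 2, eWAT replicate 3 or muscle replicate 1, each left out singly, with values from 0.27 to 0.73 over the 6 arrays. In ad libitum mice the same difference was 0.56 ± 0.22 (adjusted p = 0.028), and it was 0.28 (adjusted p = 0.31) without ad libitum muscle replicate 2. A second, dimmer Fgfr1 probe was detected on 1 eWAT, 4 muscle and 0 liver arrays.

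Fgfr2, by its brightest probe, and Fgfr3 were higher in liver. Their proteins are FGF receptors best known from epithelia and cartilage. The brightest Fgfr2 probe read 276, 255 and 299 in wild-type control liver, 268, 198 and 199.6 in eWAT (2 of 3 detected) and 193 to 209 in muscle (none detected). The raw liver and eWAT signals overlapped. By this probe liver exceeded eWAT by 1.64 ± 0.25 and was at least 2.95-fold above muscle (limma, adjusted p = 5.9e-07 and 2.5e-08). A dimmer Fgfr2 probe was detected on 1 of 3 liver and 1 of 3 eWAT arrays of these controls. The brighter Fgfr3 probe read 228, 231 and 228 in liver, 192, 171 and 154 in eWAT and 168 to 202 in muscle, and was detected only in liver among these 9 arrays. Its liver level was at least 2.13-fold above eWAT and at least 1.78-fold above muscle (adjusted p = 3.6e-06 and 1.9e-06). In ad libitum mice 56.5% of probes passed between liver and eWAT, 61.7% between liver and muscle and 58.5% between eWAT and muscle. These mice gave the same order for both genes by the same probes. There Fgfr2 was at least 2.95-fold and Fgfr3 at least 2.49-fold higher in liver than in eWAT. For orientation, 61.2% of all tested probes passed the liver-eWAT contrast, 67% the liver-muscle contrast and 61.6% the eWAT-muscle contrast in wild-type controls, against 4 of 5, 5 of 5 and 2 of 5 of these genes.

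No statement on Fgfr4, the main hepatocyte FGF receptor, could be drawn from its single probe. It read 155 to 266 in liver, 128 to 194 in eWAT and 151 to 214 in muscle and was detected on 0 of 48 arrays. The probe for fibrinogen β (Fgb), a major hepatocyte transcript, was likewise detected on 0 of 16 liver arrays (136 to 231), whereas that for albumin was detected on 16 of 16 at only 214 to 441. The dimmest Fgfr2 probe and the dimmer Fgfr3 probe were also detected on 0 of 48 arrays. With the Fgfr4 probe, these 3 probes entered no test.

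The second question was whether the signal chain differs under ligand excess. The Fgf21 probe read 61091 to 65655 in FGF21-Tg liver against 329 to 614 in controls, and 9661 to 17654 in FGF21-Tg eWAT against 191 to 200.1 in controls. The coreceptor and receptor genes passed the test in none of the 3 tissues with all arrays in the fit. In this comparison 1 of 4 tested genes passed in liver, where 4.63% of all probes did, and 1 of 5 in eWAT (6.12% of probes), and in both that gene was Fgf21. In muscle (0.806% of probes) Fgf21 passed and Fgfr1, the only other gene tested, did not. Without chips 2 and 3, 4.4% of probes passed in liver, 0.0943% in eWAT and 1.42% in muscle. Fgf21 read 65655, 61091 and 61198 in liver of FGF21-Tg mice and 366, 329 and 614 in their controls. The groups lay far apart on every array. The log2 difference was 7.76 ± 0.32 (adjusted p = 2.1e-10; 7.75 without chips 2 and 3). A block for the chip gave 6.81 ± 0.32 (adjusted p = 3.3e-08), 1 control array sharing the chip of the FGF21-Tg arrays. The highest signals on the arrays were 58470 to 72920, so that liver values lay near the top of the scale.

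In eWAT the FGF21-Tg arrays read 17654, 9661 and 16999.6 for Fgf21 and the controls 200.1, 199.6 and 191, none detected. The groups did not overlap, and Fgf21 exceeded its controls there at least 248-fold (log2 difference of measured means 8.05 ± 0.33, adjusted p = 9.1e-09; 7.93, adjusted p = 6.9e-04, without chips 2 and 3). Apoa1, a hepatocyte transcript, read 173, 320.4 and 283 on the FGF21-Tg eWAT arrays and 248, 744 and 189 on the control eWAT arrays. Apoc3, another hepatocyte transcript, read 742, 957 and 847 on the FGF21-Tg arrays and 358, 622 and 225 on the control arrays, without overlap (1.87, adjusted p = 0.11). The summed signal of 8 hepatocyte markers was 749.7 to 1119 in FGF21-Tg and 222 to 3199 in control eWAT, with Alb, Apoh and Fgb detected on none of these arrays, and 0 of 6 tested hepatocyte markers passed limma's test (1, Apoc3, at an unadjusted p under 0.05). The part of liver RNA in the eWAT value was not tested. Apoe, whose promoter drives the transgene, read 3219, 2947 and 5751 in FGF21-Tg eWAT and 9984, 8313 and 11449 in control eWAT, whereas it read 41875 to 50364 in liver and 347 to 548 in muscle of these mice. The epididymis transcript Adam7 was detected on all 3 FGF21-Tg eWAT arrays (14741, 340.9 and 332) and on control replicate 1 (641). Without the 2 arrays of highest Adam7, FGF21-Tg replicate 1 and control replicate 1, the Fgf21 difference was 7.78 ± 0.38 (adjusted p = 6.2e-07).

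In muscle Fgf21 read 433, 335 and 315 in FGF21-Tg mice and 203, 196 and 207 in controls, where it was not detected. It was at least 3.68-fold higher (log2 difference of measured means 2.13; 2.15 without chips 2 and 3). Of all muscle arrays only these 3 detected the probe, so that it met the detection filter through the group where it is high; with every probe tested and no filter, limma gave an adjusted p of 9.95e-05. Apoa1 was detected on FGF21-Tg muscle replicate 3 only, at 756 against 175 to 196 on the other 5 arrays, and adiponectin read 1867 to 2721 in FGF21-Tg muscle and 1238 to 2455 in controls; the part of fat or liver RNA in the muscle value was not tested. Taken from the measured means, the Fgf21 response of liver exceeded that of muscle by 5.09 and that of eWAT exceeded that of muscle by 5.98, and liver and eWAT differed by -0.89 ± 0.43 (adjusted p = 0.24). No size can be read from these differences, since the controls of eWAT and muscle were not detected and FGF21-Tg liver lay near the top of the scale. Of all probes, 1.81%, 2.88% and 9.42% passed in these tests of the difference. The difference between liver and eWAT turned with the processing, being -2.38 (adjusted p = 0.0021) with the chip as a block and 1.82 (adjusted p = 9.4e-08) on the deposited log2 values.

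**Figure D2:**
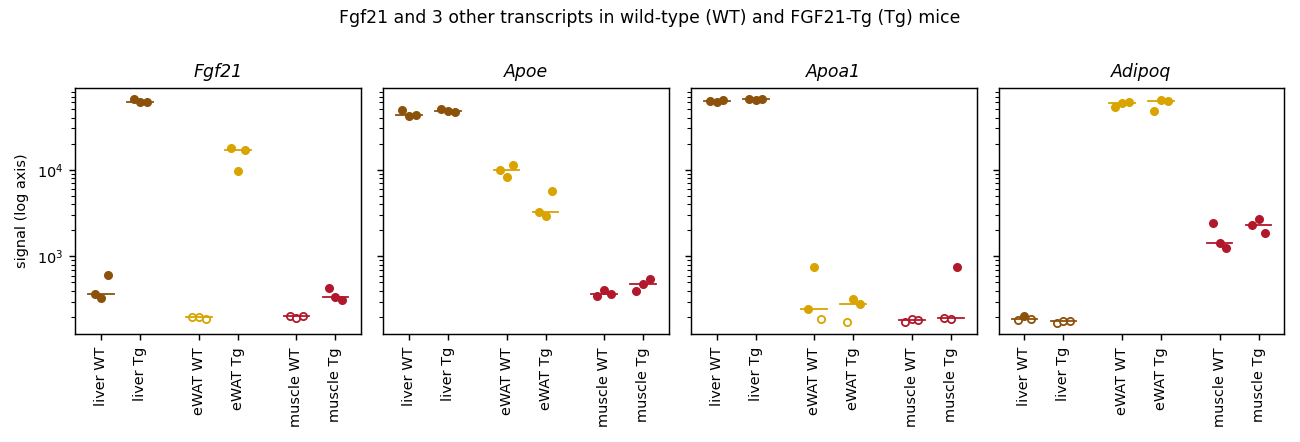
Array signal (log axis) of Fgf21, Apoe, Apoa1 and Adipoq in wild-type controls (WT) and FGF21-Tg mice (Tg) of the 3 tissues; each point is 1 array, filled where detected, and bars are medians. Fgf21 read 9661 to 17654 in FGF21-Tg eWAT while Apoa1 read 173 to 320.4 on the same arrays.

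Klb read 1482, 1234 and 1167 in liver of FGF21-Tg mice against 780.5, 1000.4 and 706 in controls. The groups did not overlap, but the difference of 0.61 ± 0.19 missed the threshold by a small margin (adjusted p = 0.101), and it passed under 3 other settings, among them no background correction (adjusted p = 0.042), as well as without FGF21-Tg replicate 3 or control replicate 2. In eWAT Klb read 1895, 2245 and 1869 against 1287, 1997 and 1225, with overlapping groups and a difference of 0.50 ± 0.21 (adjusted p = 0.20). Without control replicate 2 this difference was 0.79 (adjusted p = 0.020), and without the 2 arrays of highest Adam7 it was 0.22 (adjusted p = 0.64).

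For the receptors, Fgfr1 in eWAT read 244, 430.2 and 326 in FGF21-Tg mice and 364, 379 and 438 in controls, a difference of -0.53 ± 0.27 (adjusted p = 0.30), which passed without FGF21-Tg replicate 2 (-0.83, adjusted p = 0.088) or control replicate 1 (-0.79, adjusted p = 0.092). In muscle Fgfr1 read 272, 329.6 and 279 against 265, 263 and 253, without overlap, and the difference was 0.43 ± 0.21 (adjusted p = 0.59). The difference between these responses, -0.94 ± 0.31, did not pass either (adjusted p = 0.12), but did with the chip as a block (-1.29, adjusted p = 0.045) and without eWAT FGF21-Tg replicate 2, eWAT control replicate 1 or muscle FGF21-Tg replicate 1 (-1.22, -1.20 and -1.05). Fgfr3 was detected on 0 of 3 FGF21-Tg and 3 of 3 control liver arrays, at 208, 192 and 171 against 228, 231 and 228 (-0.78 ± 0.26, adjusted p = 0.12), and on 2 of 3 FGF21-Tg against 0 of 3 control eWAT arrays (0.46 ± 0.26, adjusted p = 0.36; 0.80, adjusted p = 0.097, without the 2 arrays of highest Adam7). The response of Fgfr3 differed between liver and eWAT by -1.33 ± 0.37 (adjusted p = 0.024; -1.25, adjusted p = 0.052, without chips 2 and 3; -1.04, adjusted p = 0.29, with the chip as a block), although it passed the test in neither tissue alone. Fgfr2 differed by 0.16 ± 0.22 in liver and 0.34 ± 0.39 in eWAT (adjusted p = 0.78 and 0.67).

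**Figure D3:**
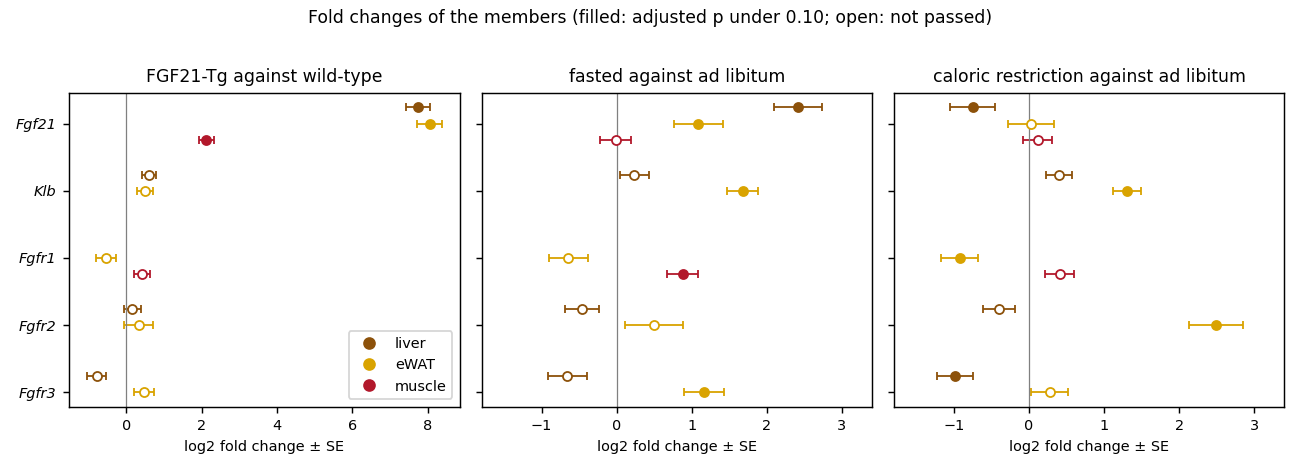
Log2 fold changes (points, with SE bars) of 5 genes by their brightest probe in liver, eWAT and muscle for FGF21-Tg against wild-type, fasted against ad libitum and caloric restriction against ad libitum; filled points passed an adjusted p of 0.10, and genes not tested in a tissue have no point. Fgf21 alone passed under ligand excess, and Klb passed in eWAT under both diets.

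Fasting raised the hormone gene in liver and eWAT and the coreceptor gene in eWAT. In liver 1 of 4 tested genes passed (17.2% of all probes did), in eWAT 3 of 5 (26.4%) and in muscle 1 of 2 (39%). Liver Fgf21 read 1570.4, 1385 and 1120.1 in fasted mice and 363, 574 and 445 in ad libitum mice. Every fasted array was above every ad libitum array, and the difference was 2.42 ± 0.32, 5.33-fold (adjusted p = 7.7e-05; 2.41, adjusted p = 3.8e-04, without chips 2 and 3, which hold none of these arrays). In eWAT Fgf21 read 415, 303 and 304 in fasted mice and 201, 243 and 235 in ad libitum mice, where 2 of 3 arrays detected it. The rise of 1.09 ± 0.33 (adjusted p = 0.031) was lost without ad libitum replicate 1 (0.91, adjusted p = 0.13) or fasted replicate 1 (0.81, adjusted p = 0.13), and the deposited log2 values gave 0.037 (adjusted p = 0.96). Muscle Fgf21 was not detected in either group, at 202 to 228 and 183 to 211. The liver response exceeded that of eWAT by 1.39 ± 0.43 and that of muscle by 2.30 ± 0.43 (adjusted p = 0.027 and 1.6e-04); without eWAT fasted replicate 3 the first of these was 1.15 and missed the threshold. Among all probes the fasting response differed between liver and eWAT for 15.7%, between liver and muscle for 20.5% and between eWAT and muscle for 16.7%.

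Klb in eWAT read 3614, 2761 and 3331 in fasted mice and 965, 1066 and 1041 in ad libitum mice. The lowest fasted array lay far above the highest ad libitum array. Klb rose by 1.68 ± 0.21, 3.20-fold (adjusted p = 7.8e-05), and stayed between 1.60 and 1.73 when each array was left out in turn. Both groups lie on 1 chip, among the exchanged arrays, so that no value without chips 2 and 3 exists. Set against the wild-type controls of the other experiment, also fed ad libitum but on another chip, the rise was smaller, 0.92 ± 0.21 (adjusted p = 0.0052), and on the deposited log2 values it was 1.08. Between these fed groups, of which 1.67% of probes differed, Klb gave -0.76 ± 0.21 for ad libitum minus control (adjusted p = 0.11). In liver Klb read 1349.7, 977 and 852 in fasted mice and 949, 976 and 1037 in ad libitum mice (0.24 ± 0.19, adjusted p = 0.48). The fasting response of Klb was lower in liver than in eWAT (difference -1.59 ± 0.28, adjusted p = 8.8e-05). Summed adipocyte markers were 77541 to 81520 in fasted and 113430 to 128830 in ad libitum eWAT. Of these markers Lep (-3.05) and Plin1 (-0.90) fell. Adipoq (0.07), Lipe (0.03), Cidea (0.26), Fabp4 (-0.36) and Retn (-0.46) did not pass limma's test. Summed endothelial markers were 9481 to 11679 and 5081 to 7166, and summed skeletal muscle markers 3861 to 15769 and 1155 to 1614, with Ckm detected on none of these arrays. The muscle gene Pvalb rose by 2.71 (adjusted p = 1.5e-04) as the 1 of 4 tested muscle markers that passed, and the hepatocyte gene Apoc3 by 2.92 (adjusted p = 0.0036) as 1 of 6. The part of these cells in the Klb result was not tested.

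Among the receptors, Fgfr3 rose in fasted eWAT and Fgfr1 in fasted muscle. Fgfr3 read 251, 254 and 242 in fasted eWAT and 166, 159 and 190.2 in ad libitum eWAT, where it was not detected. It was at least 1.28-fold higher (log2 difference 1.16 ± 0.26, adjusted p = 0.0065), and in liver it read 229, 292 and 296 against 313, 311 and 327 (-0.66 ± 0.26, adjusted p = 0.12; -0.85 and -0.87, adjusted p = 0.074 and 0.068, without fasted replicate 2 and 3 in turn). The Fgfr3 responses of liver and eWAT differed by -1.66 ± 0.37 (adjusted p = 0.0015). Fgfr1 read 352, 358 and 388 in fasted and 361, 256 and 278 in ad libitum muscle by raw signal, and after normalization the groups separated, with log2 values of 7.49 to 7.82 and 6.23 to 7.30. The rise was 0.88 ± 0.21 (adjusted p = 0.0045) by the brightest probe. The dimmer probe, detected on 3 of 3 fasted and 0 of 3 ad libitum arrays, gave at least 1.39-fold (1.10 from the measured means; 0.62 with the chip as a block). It met the detection filter only through the fasted arrays and is no independent support; with no filter its adjusted p was 0.0012. Without chips 2 and 3, and with the wild-type controls of the other experiment as fed reference, the rises were 0.99 (adjusted p = 4.1e-04) by the brightest and 1.23 by the dimmer probe. In fasted eWAT Fgfr1 read 350.3, 334 and 411 against 415, 479 and 471 in ad libitum mice (-0.64 ± 0.27, limma, adjusted p = 0.11). The adjusted p was 0.092 with the chip as a block and 0.34 with the wild-type controls as reference. Between eWAT and muscle the responses differed by -1.52 ± 0.31 (limma, adjusted p = 5.2e-04). Fgfr2 did not pass in either tissue that expressed it, with -0.46 ± 0.22 in liver and 0.50 ± 0.39 in eWAT (adjusted p = 0.21 and 0.43); with the wild-type controls as reference the liver value was -0.63 (adjusted p = 0.063).

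Under caloric restriction the hormone gene passed the test for a rise in no tissue, whereas in eWAT the coreceptor gene and Fgfr2 rose and Fgfr1 fell. In liver 2 of 4 tested genes passed (34.1% of all probes), in eWAT 3 of 5 (46.1%) and in muscle 0 of 2 by limma (49.8%; 0 of 2 also at an unadjusted p under 0.05). A pass was thus common among all probes in these contrasts. Liver Fgf21 read 319, 389, 269.95 and 292 in restricted mice against 363, 574 and 445 in ad libitum mice. The groups overlapped, and the difference of -0.75 ± 0.30 passed narrowly (adjusted p = 0.073) and no longer without chips 2 and 3 (-0.71, adjusted p = 0.23) or, left out singly, without ad libitum replicate 2 or 3 or restricted replicate 1, 3 or 4 (from -0.99 to -0.45). Fasted liver exceeded restricted liver in Fgf21 by 3.17 ± 0.30 without overlap (adjusted p = 4.3e-06; 3.12, adjusted p = 2.9e-04, without both chips). Fasted and restricted mice differed in 24.3% of probes in liver, 39.2% in eWAT and 40.1% in muscle. In eWAT Fgf21 differed by 0.03 ± 0.31 (adjusted p = 0.96) and in muscle it was not detected.

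Klb in restricted eWAT read 1844, 2147, 1798 and 1861 against 965, 1066 and 1041 in ad libitum eWAT. The groups did not overlap, Klb rose by 1.30 ± 0.19, 2.47-fold (adjusted p = 1.1e-04), and values without single arrays ran from 1.23 to 1.35. All 4 restricted eWAT arrays lie on a chip of their own among those of this tissue, so that chip and restriction cannot be told apart there. Against the wild-type controls of the other experiment the rise was 0.54 ± 0.19 (adjusted p = 0.037), and on the deposited log2 values 0.70. Fasted and restricted eWAT differed by 0.38 ± 0.19 in Klb (adjusted p = 0.16). In liver Klb read 1236, 1405, 1222 and 1029 in restricted mice against 949, 976 and 1037 in ad libitum mice, 0.40 ± 0.18 higher (adjusted p = 0.11), and the liver response was 1.02 below that of eWAT (difference -1.02 ± 0.26, adjusted p = 0.0036). Such differences in the restriction response passed for 27.4% of probes between liver and eWAT, 27.8% between liver and muscle and 34.3% between eWAT and muscle.

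The receptors of eWAT moved in opposite directions under restriction. Fgfr2 read 307, 512, 398 and 462 on the restricted arrays and 188, 195 and 203 on the ad libitum arrays, where it was not detected. It was at least 4.26-fold higher (log2 difference 2.49 ± 0.36, adjusted p = 9.4e-05), and the dimmer probe rose by 1.26 ± 0.24 (adjusted p = 8.5e-04), from 222, 209 and 209 to 266, 332, 315 and 316. Both probes were also higher in restricted than in fasted eWAT, by 1.99 ± 0.36 and 1.17 ± 0.24 (fasted minus restricted -1.99 and -1.17, adjusted p = 8.3e-04 and 0.0020). Fgfr1 read 302, 290.1, 299.9 and 319 in restricted and 415, 479 and 471 in ad libitum eWAT, without overlap, and fell by 0.92 ± 0.25 on the log2 scale (adjusted p = 0.0088). Marker levels of other cells fell too, in a contrast that 46.1% of all probes passed. In restricted eWAT 4 of 5 stromal and mesothelial markers, 3 of 3 macrophage markers and 3 of 4 endothelial markers fell. The summed stromal signal was 3815 to 5086 in restricted and 13491 to 19953 in ad libitum eWAT. Summed adipocyte markers were 65141 to 75418 in restricted and 113430 to 128830 in ad libitum eWAT. Of these Lep (-9.32) and Plin1 (-0.64) fell, Cidea (5.86) and Retn (1.24) rose, and Adipoq, Lipe and Fabp4 did not pass. The part of all these cells in the Fgfr1, Fgfr2 and Klb values of restricted eWAT was not tested. Against the wild-type controls of the other experiment, Fgfr1 fell by 0.65 on the log2 scale (adjusted p = 0.048) and Fgfr2 rose by 1.98 (adjusted p = 6.1e-04).

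In restricted liver, Fgfr3 read 241, 263, 193 and 190.02 against 313, 311 and 327 and was detected on 1 of 4 against 3 of 3 arrays. It fell by 0.99 ± 0.24 on the log2 scale (adjusted p = 0.0063; by 0.90 with an adjusted p of 0.056 without chips 2 and 3). The Fgfr3 responses of liver and eWAT differed by -1.42 ± 0.34 (adjusted p = 0.0020). Liver Fgfr2 gave -0.40 ± 0.21 by its brightest probe (adjusted p = 0.18; -0.57, adjusted p = 0.050, with the wild-type controls as reference) and 0.53 ± 0.20 by a dimmer one (adjusted p = 0.059; 0.51, adjusted p = 0.12, without both chips, and lost as well without ad libitum replicate 2 or 3 or restricted replicate 3), so that the probes disagreed in sign. In restricted muscle Fgfr1 read 315, 280.5, 284 and 344 and differed from ad libitum muscle by 0.41 ± 0.20 (adjusted p = 0.11), from 0.13 to 0.67 without single arrays, the highest without ad libitum replicate 1 (adjusted p = 0.0085). With the wild-type controls as fed reference and both chips left out the difference was 0.60 (adjusted p = 0.0023). Fasted muscle exceeded restricted muscle in Fgfr1 by 0.47 ± 0.20 (adjusted p = 0.078; 0.39, adjusted p = 0.21, with the chip as a block, and lost too without restricted replicate 2 or 3 or fasted replicate 1 or 3) and, by the dimmer probe, by 0.89 (adjusted p = 0.0037 with no detection filter). Without both chips these were 0.39 (adjusted p = 0.068) and 1.14.

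**Figure D4:**
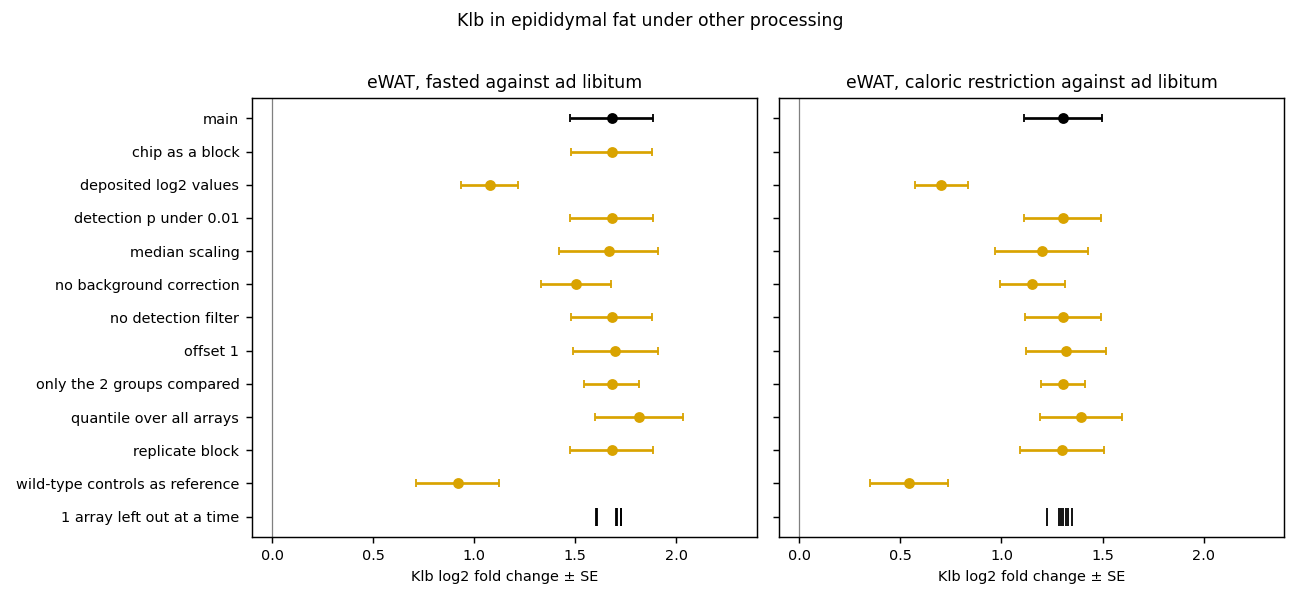
Klb log2 fold change (points, with SE bars) in eWAT for fasted and calorically restricted against ad libitum mice under each processing setting, with ticks for each value after 1 array was left out. Fasting gave 1.68 and restriction 1.30 in the main setting (black), and 0.92 and 0.54 with the wild-type controls of the other experiment as the fed reference.

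Genes around the signal chain were counted from lists of upstream regulators, ligands, adaptors and targets, with 1 probe a gene. These lists were chosen with earlier results of these data known. PPARα targets rose with fasting in all tissues, 6 of 6 tested in liver (17.2% of all probes passed; median log2 change 2.42 against 0.01 over all probes), 5 of 6 in eWAT (26.4%; 2.49 against -0.01) and 3 of 5 in muscle (39%; 3.34 against -0.03), and none fell. In fasted liver, beside Fgf21, the ω-hydroxylase gene Cyp4a14 rose by 6.92, the acyl-CoA thioesterase gene Acot1 by 3.65 and the β-oxidation gene Ehhadh by 2.52. Under restriction 4 of 6 of these targets rose in liver (Cyp4a14 by 6.62, Angptl4 by 2.14; 34.1% of all probes passed), 4 of 6 in eWAT (46.1%) and 3 of 5 in muscle (49.8%), with Plin2 falling in muscle (-0.845). In FGF21-Tg mice 1 of 6 rose in liver (Cyp4a14 by 3.57; 4.63% of all probes passed), 2 of 6 in eWAT (6.12%; Acot1, and Plin2, which no longer passed without the 2 arrays of highest Adam7) and 1 of 5 in muscle (0.806%). Among 12 listed regulators of Fgf21, Ppargc1a (PGC-1α) rose in fasted (1.89), restricted (3.25) and FGF21-Tg liver (1.31), where no other passed. It also rose in fasted, restricted and FGF21-Tg eWAT (1.29, 3.32 and 1.25) and in restricted muscle (0.71). Creb3l3, the liver-enriched CREBH gene, rose in fasted liver by 0.78 and fell in restricted liver by 0.56. The others that passed in fasted liver (17.2% of all probes) were Atf5 (0.76), Mlxipl (-1.29) and Nr1d1 (-0.98). In restricted liver (34.1%) they were Atf5 (0.46), Rxra (0.57), Crtc2 (0.55), Nr1d1 (-1.07) and Pparg (-0.82).

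Downstream of the receptors, feedback inhibitors of the ERK pathway rose in eWAT of FGF21-Tg mice, 3 of 5 tested with all arrays in the fit (6.12% of all probes passed; median log2 change 0.52 against -0.0024 over all probes). These were the phosphatase genes Dusp4 (1.76, adjusted p = 0.0019) and Dusp6 (0.52, adjusted p = 0.075) and the Sprouty gene Spry4 (0.94, adjusted p = 0.086). Without the 2 arrays of highest Adam7, Dusp4 alone of these passed (1.33, adjusted p = 0.0021), Dusp6 giving 0.43 (adjusted p = 0.16) and Spry4 0.53 (adjusted p = 0.26). Without chips 2 and 3, whose arrays add to the estimate of the spread, only 0.0943% of all probes passed in FGF21-Tg eWAT. No values of list genes are given for that fit, here or below. Cell type markers moved in the same contrast: Adgre1 (-0.74) and Cd14 (-0.96) of 3 macrophage, Pecam1 (-0.67) of 4 endothelial and Dpt (-1.03) of 5 stromal and mesothelial markers fell, and Cidea (2.13) of 7 adipocyte markers and Cela1 (2.21), the only acinar marker tested, rose. Ctrb1, Prss2 and Cel, the other acinar markers, were detected on none of these arrays. The part of other cells in these values was not tested. In FGF21-Tg liver and muscle 0 of 5 passed by limma (median 0.32 and -0.03), with 1 and 0 at an unadjusted p under 0.05. In restricted eWAT Dusp6 and Spry4 fell (-0.71 and -0.81) and no inhibitor rose, and in fasted eWAT Dusp6 rose by 0.60. Receptor adaptors and kinases of the ERK cascade gave 0 of 9 in each tissue of FGF21-Tg mice by limma, with 0 in liver, 0 in eWAT and 2 in muscle at an unadjusted p under 0.05. Fosb fell in FGF21-Tg eWAT (-1.44, adjusted p = 0.086; -1.32, adjusted p = 0.17, without FGF21-Tg replicate 1) as the 1 of 7 ERK response genes that passed there.

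Several other genes of the FGF family fell in eWAT under both diets. Of 6 tested genes listed as other FGFs, 4 fell and 0 rose in fasted eWAT and 4 fell and 1 rose in restricted eWAT, where 26.4% and 46.1% of all probes passed. The 4 that fell under fasting and restriction were Fgf2 (-1.81 and -1.82), Fgf10, which acts on preadipocytes (-1.39 and -2.11), Fgf1 (-1.15 and -1.12) and Fgf13 (-0.75 and -0.90). In restricted eWAT the stromal and mesothelial markers Dpt (-2.76), Col1a1 (-3.86), Upk3b (-0.82) and Msln and all 3 macrophage markers fell too, whereas in fasted eWAT 0 of 5 and 0 of 3 passed by limma (1 and 0 at an unadjusted p under 0.05). The part of these cells in the values of the FGF genes was not tested. Among surface proteins that bind FGFs, the heparan sulfate proteoglycan gene Sdc4 rose in fasted (1.14), restricted (1.31) and FGF21-Tg eWAT (1.41, adjusted p = 0.0012). It also rose in fasted (1.07) and restricted muscle (0.75). In eWAT the decoy receptor gene Fgfrl1 fell under both diets (-1.02 and -1.81). Of the same list Sdc2 (-1.02), Gpc1 (-0.81) and Gpc4 (-0.64) fell too in fasted eWAT. In restricted eWAT Gpc1 (-2.43), Sdc3 (-1.44) and Sdc2 (-0.47) fell and Gpc4 (0.77) rose. Lctl, the γ-klotho gene, rose in FGF21-Tg eWAT by 2.47 (adjusted p = 0.040) and fell in fasted and restricted eWAT (-2.00 and -3.34). In muscle Dpp4 and Fap, whose proteins cleave circulating FGF21, fell under restriction (-2.05 and -1.69) together with all 3 tested stromal markers, and Dpp4 fell with fasting (-0.71).

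Over the 15 group means, the genes whose pattern was most like that of each member were described by Pearson's r, with no test. These means share libraries and are dominated by differences between the tissues. Klb was followed most closely by Cdo1 (r = 0.985), the cysteine dioxygenase gene, then by Ptbp1 and Gm6548 (both r = 0.983). Fgfr1 was followed by Csnk1e (0.977), Art3 (0.976) and Lysmd2 (0.975), Fgfr2 by Tmem168 (0.973), Aspg (0.958) and Tst (0.954), and Fgfr3 by Gm4956 (0.942), Sec23b (0.939) and Cmah (0.934). For Fgf21, whose pattern is set by the FGF21-Tg groups of liver and eWAT, the closest were Nt5e (0.882), Elf5 (0.863) and Slc25a48 (0.796). By Spearman's ρ only Tmem168, for Fgfr2 (0.975), was again among the 3 nearest genes of a member.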

How the data were processed

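RNA of 3 tissues was measured on 48 single-colour bead arrays. The deposited table holds, per array, a probe intensity without normalization and a detection p-value, both written by BeadStudio as the submitters' processing notes name it, with no version given. A second deposited table holds log2 values that the authors obtained by model-based background correction and quantile normalization, and it served as an alternative only. All 25697 probes were used (23978 with 1 gene symbol, 1719 with none). Background was removed by the nec function of limma (version 3.58.1, R 4.3.3), which fits normexp from the detection p-values, with an offset of 16. Quantile normalization followed, within a tissue or, for contrasts between tissues, over all 48 arrays, and then the log2. A probe was tested where 3 or more arrays of a fit detected it (p under 0.05), using lmFit and eBayes on all 5 groups of a tissue, with Benjamini-Hochberg adjustment over all tested probes, and an adjusted p under 0.10 counted as passed. The authors' significance analysis of microarrays was replaced by limma, and their further criterion of a 2-fold change is among the alternatives. Where a probe was detected on no array of a group, folds are given as at least N-fold, from the bright group's mean and, per array of the dim group, the higher of the lowest detected signal and the probe's own.

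Labels of 2 chips were exchanged as described in the report. The 6 genes and all lists were chosen with earlier results of these data known. All 6 genes are named, list genes as examples of those that passed, and nearest genes as the top 3 by correlation. Replicates are arrays of 1 to 3 mice each, and arrays of a group have no further description, so that p-values measure the spread between these arrays, whose small number limits the precision. Within a tissue, same-numbered arrays of compared groups did not deviate together (correlations from -0.066 to 0.162 over 12 comparisons), so no block entered the main fit. Whether arrays of different tissues came from the same mice was not checked, and contrasts between tissues treat them as independent. Tested on simulated data for FGF21-Tg against wild-type liver (12859 probes), the fit recovered 66% of probes changed by a log2 of 1, 88% at 1.5, 98% at 2 and 100% at 3, with 19 false calls. Upstream sequences came from RefSeq (GRCm38.p6), matched by symbol. Alternatives covered background, normalization, filter, thresholds, deposited values, chips, labels as given, left-out arrays and the fed reference.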

Additional observations from a re-analysis of the deposited data

Results flagged for a closer look

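The response to a condition differed between tissues in 22 of 63 tests of the difference itself, each on the log2 scale with limma's adjusted p under 0.10. Of all probes, 1.81% to 9.42% passed such tests under ligand excess, 15.7% to 20.5% with fasting and 27.4% to 34.3% under restriction. Several of the 22 involve a tissue where the probe was not detected, as stated below. For single arrays that stand apart, only the 3 groups of 4 arrays, those under caloric restriction, were checked. In each of these groups only the probes tested in that tissue were checked, and none of their sets of values held one. The 12 groups of 3 arrays were not checked.

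Under ligand excess Fgf21 differed by 5.09 between liver and muscle and by 5.98 between eWAT and muscle, and Fgfr3 by -1.33 between liver and eWAT. The Fgf21 differences are those of measured means and give no size, since FGF21-Tg liver lay near the top of the scale and the controls of eWAT and muscle were not detected.

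With fasting, the liver response of Fgf21 exceeded that of eWAT by 1.39 and that of muscle by 2.30, where neither group detected it. Klb differed by -1.59 between liver and eWAT and by 1.61 between eWAT and muscle, where its probe was not detected. Fgfr1, not detected in liver, differed by 0.85 between liver and eWAT and by -1.52 between eWAT and muscle, and its dimmer probe by -1.08 between liver and muscle and by -1.35 between eWAT and muscle, where it met the detection filter only through the fasted arrays. Fgfr3 differed by -1.66 between liver and eWAT and by 1.03 between eWAT and muscle, where it was not detected.

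Under caloric restriction Klb differed by -1.02 between liver and eWAT and by 1.31 between eWAT and muscle. Fgfr1 differed by 0.93 between liver and eWAT and by -1.31 between eWAT and muscle. The brightest Fgfr2 probe differed by -2.54 between liver and eWAT and by 2.37 between eWAT and muscle, and a dimmer one by 0.76 between eWAT and muscle. Fgfr3 differed by -1.42 between liver and eWAT and by -1.15 between liver and muscle. Klb, Fgfr2 and Fgfr3 were detected on no muscle array, and Fgfr1 on no liver array. Differences against those tissues therefore hold background values and give no size. All eWAT values of the diet experiment rest on the exchanged labels.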

How the results depend on the processing

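Over 161 results, 3116 values under alternatives were counted as the same, 136 lost the threshold, 66 gained it and 17 turned in direction. A value that did not pass, beside a main result that did not pass, was counted as the same whatever its direction. The turns are thus only those where the value or the main result passed. Where calls changed, the cause was not tested. With the labels as given, which mix tissues within groups, Klb gave -3.58 in fasted and 1.11 in restricted eWAT, -4.69 for fasted minus restricted eWAT, -1.72 for ad libitum eWAT and -0.61 for ad libitum liver against muscle, 3.75 and -0.17 for the fasting response of liver minus eWAT and eWAT minus muscle, and 0.67 in restricted liver. Under the same labels Fgf21 gave -0.17 in fasted eWAT, -1.07 for fasted minus restricted eWAT, -1.01 in restricted and -1.08 in fasted muscle and 1.83 for the restriction response of eWAT minus muscle. Fgfr1 gave -0.036 for eWAT against muscle in ad libitum mice and 0.47 (adjusted p = 0.47) in wild-type controls. Fgfr2 gave -0.86 and -0.18 by its probes in restricted eWAT, -0.42 and -0.061 for the restriction response of eWAT minus muscle, and 0.70 for liver minus eWAT.

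The lower Fgf21 in restricted liver no longer passed at an adjusted p of 0.05 or with a 2-fold criterion (-0.75 in both), without a detection filter (-0.75), without the exchanged chips (-0.71), on the deposited log2 values (-0.084), without background correction (-0.38) or with the replicate block (-0.74), and ran from -0.99 to -0.45 without single arrays. The rise of Fgf21 in fasted eWAT gave 0.037 on the deposited values and 0.46 without background correction, and 0.81 to 1.37 without single arrays; the deposited values also turned the FGF21-Tg response of liver minus eWAT to 1.82. Fgfr1 in wild-type eWAT against muscle (0.47) did not pass at 0.05 or with a 2-fold criterion, and ran from 0.27 to 0.73.

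Klb in FGF21-Tg liver passed on the deposited values (0.32), with a detection p under 0.01 (0.61) and without background correction (0.51), and ran from 0.50 to 0.80. In restricted liver it passed with a detection p under 0.01 (0.40), without background correction (0.33), with only the 2 groups fitted (0.40) and with the replicate block (0.49), and ran from 0.34 to 0.49. In FGF21-Tg eWAT it ran from 0.34 to 0.79, and in wild-type liver against eWAT from -0.42 to 0.067, passing with median scaling (-0.46). Within a tissue the numbers do not pair the arrays, and the replicate block changed 3 of 161 calls, the other being a dimmer Fgfr2 probe in wild-type liver against muscle. The wild-type controls as fed reference and the fits without the eWAT arrays of highest Adam7 were added after the data had been seen. Fgf21 in FGF21-Tg muscle had no value without an FGF21-Tg array, since the detection filter then removed it. Genes near background, such as Fgfr3, have only bounds in some tissues.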
